A study of Mus musculus with 16 samples.

Results

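The genes described here encode the enzymes that cross-link collagen and elastin, namely 5 lysyl oxidases (*Lox*, *Loxl1*, *Loxl2*, *Loxl3* and *Loxl4*) and 3 lysyl hydroxylases (*Plod1*, *Plod2* and *Plod3*). They were picked by gene symbol, with earlier results of these data known, and all 8 were found among the 49452 genes of the tables, each as 1 row. Lysyl hydroxylases work in the endoplasmic reticulum, where they add a hydroxyl group to lysines of procollagen chains before the triple helix closes. Lysyl oxidases are copper enzymes that act outside the cell, where they turn lysines and hydroxylysines of collagen and elastin into aldehydes that condense into covalent cross-links. In fibrosis these cross-links stiffen the matrix and make it harder to degrade.

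RNA was sequenced from sorted lung cells that carried tdTomato, taken from 16 mice in 4 groups of 4. In *Acta2-CreERT2; tdTomatoflox* mice (*Acta2-tdT*) tamoxifen switches on the red reporter in cells with an active *Acta2* promoter, as in smooth muscle cells and myofibroblasts, and in *Pdgfra-CreERT2; tdTomatoflox* mice (*Pdgfra-tdT*) in cells with an active *Pdgfra* promoter, as in fibroblasts. Saline or bleomycin, which injures the lung and leads to fibrosis, was given into the trachea, and lungs were taken after 14 days, from males 11 weeks of age. The comparisons ask how both labelled populations differ and how each responds to bleomycin. *Acta2-tdT* mice ate food with 400 mg/kg tamoxifen, started 5 days after the instillation, so that cells which turned on *Acta2* during the injury were labelled too. *Pdgfra-tdT* mice had 5 injections of 3 mg tamoxifen at 6 weeks of age, before the instillation. Line and induction scheme differed together, so their effects cannot be told apart, and the saline-treated mice of each line carried the same alleles and received the same tamoxifen as the bleomycin-treated mice. A mouse is named by its line and number, with 1 to 4 for saline and 5 to 8 for bleomycin.

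Values are FPKM (fragment counts divided by transcript length and by the mapped fragments of the mouse) as deposited, and the number of reads behind them is unknown. The summed FPKM of nuclear protein-coding genes ran from 241916 to 466183 in *Acta2-tdT* bleomycin mice and from 29727 to 147467 in the other 12 mice. Results are therefore given on the deposited scale and on a scaled one, with this sum set to 51978.7 in every mouse. *Acta2* itself had a median of 218 FPKM in saline- and 1758 in bleomycin-treated *Acta2-tdT* mice, against 7.77 and 0.835 in *Pdgfra-tdT* mice. *Pdgfra* had a median of 2.60 FPKM in saline- and 1.69 in bleomycin-treated *Pdgfra-tdT* mice, against 0.355 and 8.55 in *Acta2-tdT* mice. With bleomycin *Pdgfra* was thus higher in the *Acta2-tdT* mice as deposited (2.49 to 11.9 against 0.977 to 2.45 FPKM). The scaled medians were 1.18 in *Acta2-tdT* and 1.51 in *Pdgfra-tdT* bleomycin mice. Of the 6 fibroblast markers, 4 had a median under 1 FPKM in *Pdgfra-tdT* bleomycin mice. The fibroblast label of *Pdgfra-tdT* bleomycin mice thus had little support from its markers, whose sum ran from 2.61 to 153 FPKM. Macrophage markers were present in all groups, and their sum, made up mostly of *Lyz2* and *Spp1*, was higher with bleomycin. It was 52.5 to 212 FPKM in the 8 saline mice, 422 to 3972 in *Pdgfra-tdT* and 5338 to 13070 in *Acta2-tdT* bleomycin mice. In such bulk samples, fewer cells of a type and less RNA per cell cannot be told apart.

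Promoter sequences, the 250 bases before the transcription start in RefSeq (GRCm38.p6), were held for 3 of the 8 genes, and they are shown because these genes moved to different degrees in the bleomycin-treated *Acta2-tdT* mice. They lie at chr19:42612807-42613056 (*Loxl4*, minus strand), chr4:147936777-147937026 (*Plod1*, minus strand) and chr5:136986769-136987018 (*Plod3*, plus strand), and are printed 5′ to 3′ along the gene.
Loxl4: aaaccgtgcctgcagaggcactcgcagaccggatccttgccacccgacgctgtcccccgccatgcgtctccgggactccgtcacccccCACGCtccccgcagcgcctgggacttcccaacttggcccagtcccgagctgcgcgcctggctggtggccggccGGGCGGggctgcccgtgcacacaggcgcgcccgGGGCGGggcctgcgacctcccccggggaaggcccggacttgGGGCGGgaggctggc
Plod1: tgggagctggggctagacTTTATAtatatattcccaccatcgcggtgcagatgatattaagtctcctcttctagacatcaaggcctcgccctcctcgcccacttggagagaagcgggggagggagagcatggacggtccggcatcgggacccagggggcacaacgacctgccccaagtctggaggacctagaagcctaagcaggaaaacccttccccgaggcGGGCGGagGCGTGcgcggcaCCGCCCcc
Plod3: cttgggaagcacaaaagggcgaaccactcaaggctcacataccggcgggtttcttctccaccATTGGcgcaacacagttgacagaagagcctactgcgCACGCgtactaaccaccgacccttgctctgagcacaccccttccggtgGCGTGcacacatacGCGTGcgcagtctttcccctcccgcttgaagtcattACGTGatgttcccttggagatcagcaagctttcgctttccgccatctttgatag
Capitals mark the motifs searched on both strands: ACGTG and GCGTG (core letters of hypoxia response elements), CCAAT (bound by NF-Y), GGGCGG (the GC box) and TATAAA (the core of the TATA box). A motif on the other strand appears as its reverse complement. None of the marked letters is shared by 2 motifs. *Loxl4* held 3 GGGCGG and 1 GCGTG and *Plod1* 2 GGGCGG, 1 GCGTG and 1 TATAAA. *Plod3* held 3 GCGTG, 1 ACGTG and 1 CCAAT, and no GGGCGG. Of all 32851 promoter windows of this length, 16.6% held ACGTG, 28.2% GCGTG, 33.8% CCAAT, 32.7% GGGCGG and 12.4% TATAAA. The motif common to these 3 promoters, GCGTG, is thus frequent in promoters at large.

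Bleomycin-treated *Acta2-tdT* mice stood apart from all other mice in these genes. Every one of their 32 values (8 genes in 4 mice) was at least 1 FPKM, against 5 of 32 in *Acta2-tdT* saline, 3 of 32 in *Pdgfra-tdT* saline and 7 of 32 in *Pdgfra-tdT* bleomycin mice. Genes of olfactory and vomeronasal receptors, large families with mostly low values in these samples, served as a gauge of low values after these data had been seen, although some olfactory receptors are known from lung cells. No value of the 8 genes exceeded the 90th percentile of the receptor genes in *Acta2-tdT* saline mice, 1 of 32 did in *Pdgfra-tdT* saline, 5 of 32 in *Pdgfra-tdT* bleomycin and 32 of 32 in *Acta2-tdT* bleomycin mice. Those 5 and 1 were *Plod3* and *Plod1* values, and ratios with any of the 3 low groups in the denominator rest on values of this size.

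**Figure D1:**
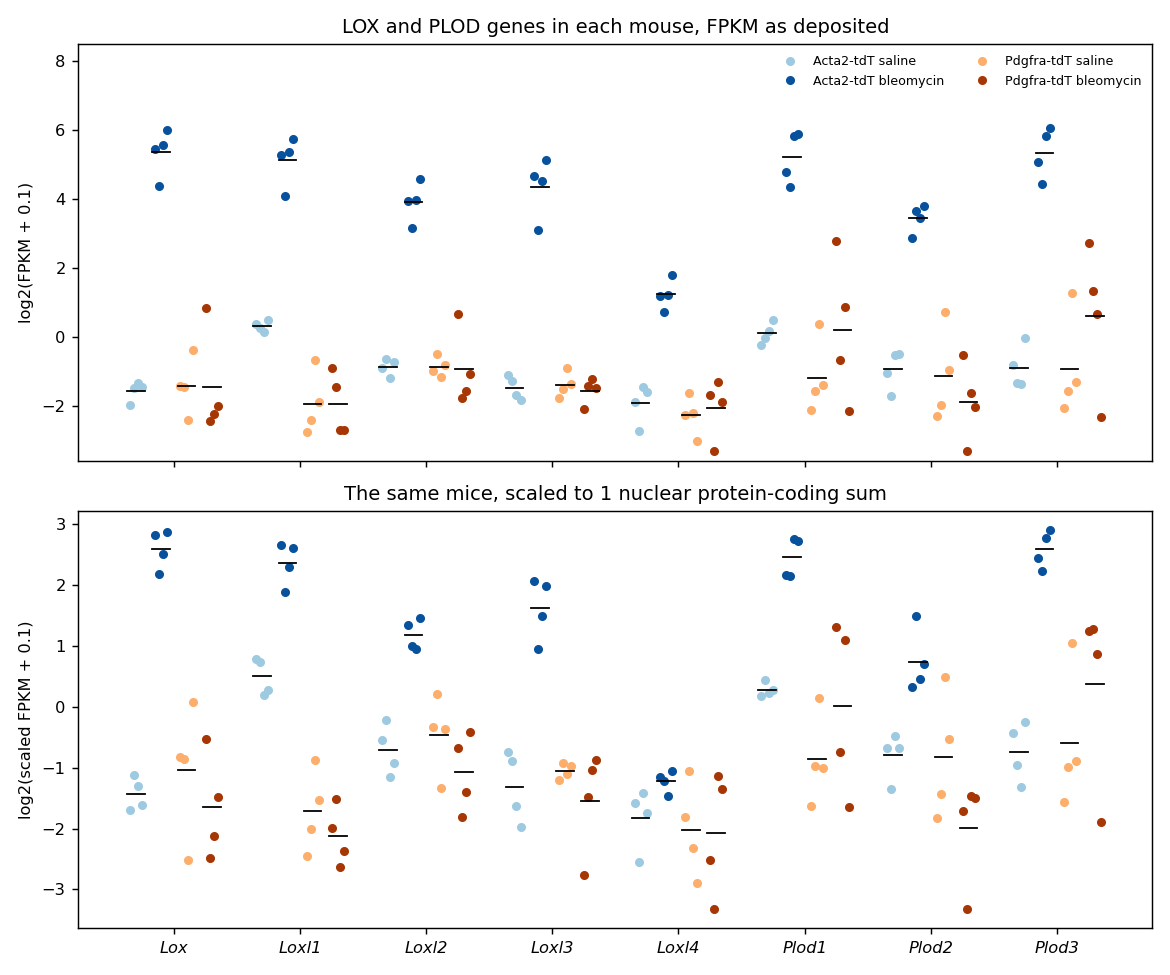
Expression of the 8 genes in each of the 16 mice as log2(FPKM + 0.1), as deposited (top) and scaled to 1 nuclear protein-coding sum (bottom). Each point is a mouse, the black line is the mean of 4 mice, and the axis is logarithmic. The 4 bleomycin-treated *Acta2-tdT* mice lie above all others in all 8 genes as deposited, and in 6 of them after scaling. The exceptions are *Loxl4* and *Plod2*, where *Pdgfra-tdT* saline mouse 3 reaches 1.30 scaled FPKM.

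*Lox* (ENSMUSG00000024529), the founding lysyl oxidase that cross-links collagen and elastin, had 0.153, 0.256, 0.292 and 0.266 FPKM in *Acta2-tdT* saline mice 1 to 4 and 43.6, 20.7, 47.5 and 64.4 FPKM in bleomycin mice 5 to 8. In *Pdgfra-tdT* mice it had 0.268, 0.261, 0.0870 and 0.661 FPKM with saline and 1.68, 0.0828, 0.111 and 0.148 FPKM with bleomycin. Only the bleomycin-treated *Acta2-tdT* mice were high, and among the other mice *Pdgfra-tdT* mouse 5 was the highest. Between saline- and bleomycin-treated *Acta2-tdT* mice the log2 fold change, here and below on the log2(FPKM + 1) scale, was 5.08 (SE 0.36, limma, adjusted p = 8.75e-06), and 2.45 on the scaled values (SE 0.18, adjusted p = 2.27e-05). The scaled mean was 6.05 ± 1.28 against 0.276 ± 0.0711 (SD, n = 4), a ratio of 21.9.

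*Loxl1* (ENSMUSG00000032334), which serves elastic fibre assembly, had 1.19, 1.10, 0.991 and 1.31 FPKM in *Acta2-tdT* saline mice and 39.0, 16.8, 40.9 and 53.7 FPKM in *Acta2-tdT* bleomycin mice. *Pdgfra-tdT* mice had 0.0483, 0.0859, 0.521 and 0.172 FPKM with saline and 0.429, 0.263, 0.0526 and 0.0539 FPKM with bleomycin. Here the *Acta2-tdT* saline mice lay above every *Pdgfra-tdT* mouse of either treatment, in addition to the high bleomycin group. The change with bleomycin in *Acta2-tdT* mice was 4.06 (SE 0.37, limma, adjusted p = 1.48e-05) and 1.39 after scaling (SE 0.21, adjusted p = 0.000318), with scaled means in a ratio of 3.86.

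*Loxl2* (ENSMUSG00000034205) and *Loxl3* (ENSMUSG00000000693), which carry scavenger receptor domains beside the catalytic one, behaved alike in direction. *Loxl2*, which also acts on basement membrane collagen, had 0.429, 0.539, 0.334 and 0.501 FPKM in *Acta2-tdT* saline and 15.2, 8.85, 15.5 and 23.9 FPKM in *Acta2-tdT* bleomycin mice. *Loxl3* had 0.361, 0.312, 0.211 and 0.181 FPKM in the former and 25.5, 8.52, 23.0 and 34.7 FPKM in the latter. In both genes the groups did not overlap, and mouse 6 was the lowest of the bleomycin mice. In *Pdgfra-tdT* mice *Loxl2* ran from 0.349 to 0.613 FPKM with saline and from 0.192 to 1.49 with bleomycin, and *Loxl3* from 0.192 to 0.429 and from 0.132 to 0.326. With bleomycin *Loxl2* rose by 3.46 (SE 0.31, limma, adjusted p = 1.38e-05) in *Acta2-tdT* mice and *Loxl3* by 4.09 (SE 0.39, adjusted p = 1.58e-05). After scaling these changes were 1.06 and 1.60 (adjusted p = 0.000309 and 0.000154), and the ratios of scaled means were 4.15 and 9.51.

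*Loxl4* (ENSMUSG00000025185), the remaining lysyl oxidase with scavenger receptor domains, was the lowest member and the exception. It had 0.170, 0.0493, 0.262 and 0.232 FPKM in *Acta2-tdT* saline mice and 2.18, 1.53, 2.23 and 3.40 FPKM in *Acta2-tdT* bleomycin mice, without overlap. The *Pdgfra-tdT* mice lay between 0.0240 and 0.221 FPKM with saline and between 0 and 0.301 with bleomycin. Its change in *Acta2-tdT* mice was 1.48 (SE 0.19, limma, adjusted p = 5.64e-05). On the scaled values the mice overlapped, and the change of 0.16 did not pass (SE 0.07, limma, adjusted p = 0.0846). Whether *Loxl4* rose therefore depended on the scale.

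Among the lysyl hydroxylases, *Plod1* (ENSMUSG00000019055) acts on lysines of the triple helix. It had 0.748, 0.885, 1.02 and 1.30 FPKM in *Acta2-tdT* saline and 27.5, 20.3, 56.6 and 58.6 FPKM in *Acta2-tdT* bleomycin mice. In *Pdgfra-tdT* mice it had 0.129, 0.238, 1.19 and 0.276 FPKM with saline and 6.76, 0.522, 1.74 and 0.126 FPKM with bleomycin. The *Acta2-tdT* bleomycin group was high, and in the *Pdgfra-tdT* line single mice stood out, mouse 3 with saline and mice 5 and 7 with bleomycin. The change with bleomycin in *Acta2-tdT* mice was 4.26 (SE 0.39, limma, adjusted p = 1.46e-05) and 1.60 after scaling (SE 0.19, adjusted p = 7.93e-05), a ratio of scaled means of 4.92.

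*Plod2* (ENSMUSG00000032374) hydroxylates lysines of the collagen ends, which leads to the stable pyridinoline cross-links typical of scars. It had 0.386, 0.207, 0.588 and 0.614 FPKM in *Acta2-tdT* saline and 7.19, 12.6, 10.9 and 13.7 FPKM in *Acta2-tdT* bleomycin mice. *Pdgfra-tdT* mice had 0.104, 0.155, 1.53 and 0.412 FPKM with saline and 0.587, 0, 0.223 and 0.145 FPKM with bleomycin. As deposited, *Plod2* was the 1 member not lowest in mouse 6 of the *Acta2-tdT* bleomycin mice. After scaling, mouse 6 had the highest *Plod2* value of the group, 2.70 against 1.15 to 1.53 in the other 3 bleomycin mice. The change in *Acta2-tdT* mice was 3.04 (SE 0.27, limma, adjusted p = 1.34e-05) and 0.81 after scaling (SE 0.19, adjusted p = 0.00468), the smallest change among the 7 members called on both scales.

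*Plod3* (ENSMUSG00000004846) also transfers sugars onto hydroxylysine. It had 0.472, 0.293, 0.285 and 0.868 FPKM in *Acta2-tdT* saline and 33.5, 21.5, 56.8 and 66.3 FPKM in *Acta2-tdT* bleomycin mice. *Pdgfra-tdT* mice had 0.137, 0.235, 2.31 and 0.306 FPKM with saline and 6.44, 2.42, 1.47 and 0.0972 FPKM with bleomycin. The *Acta2-tdT* bleomycin mice were again apart from the rest, while the *Pdgfra-tdT* groups overlapped widely. The change in *Acta2-tdT* mice was 4.83 (SE 0.39, limma, adjusted p = 1.14e-05) and 2.19 after scaling (SE 0.19, adjusted p = 2.35e-05), and the scaled means had a ratio of 11.5, next to that of *Lox*.

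In *Acta2-tdT* mice, then, 8 of 8 genes were higher with bleomycin on the deposited scale, where 70.4% of the 12523 genes tested were higher and the median log2 fold change of all was 1.76. The genes entered this test through the high bleomycin group. Without any filter on low values 8 of 8 were higher too, against 23.8% of 42342 genes. After scaling, 7 of 8 were higher with the filter, against 24.5% of all genes tested and a median of -0.01 for all, and 7 of 8 without it, against 6.45%. The groups did not overlap for 8 members as deposited (24.2% of all genes) and for 7 after scaling (6.72%). The median log2 fold change of the 8 members was 4.08 as deposited and 1.49 after scaling. Scaled marker sums moved with the treatment as well. The median sum of 7 macrophage markers was 130 in saline and 1345 in bleomycin mice (77.0 to 181 and 1147 to 1542). Most of this rise was *Spp1*, with scaled medians of 14.7 and 1058. *Lyz2* went from 105 to 327 and *Ptprc* from 2.66 to 2.53, and 4 of the 7 were called higher after scaling (limma). The median sum of 6 fibroblast markers was 29.4 and 247 (24.7 to 31.95 and 204 to 302), and that of 5 neutrophil markers 1066 and 391 (1020 to 1547 and 136 to 914). Endothelial markers (6.13 to 10.2 and 2.77 to 4.06), pericyte markers (8.56 to 12.3 and 6.12 to 8.09) and T and B cell markers (3.50 to 5.16 and 0.233 to 0.980) had lower sums with bleomycin, without overlap. The sums of 6 smooth muscle markers overlapped, at 229 to 327 and 302 to 463, as did those of epithelial and mesothelial markers. The part of these cells in the changes of the 8 genes was not tested.

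In bleomycin-treated mice, all 8 genes were higher in *Acta2-tdT* than in *Pdgfra-tdT* cells. *Lox* and *Loxl1* differed most, with log2 fold changes of 4.92 (SE 0.54, limma, adjusted p = 6.47e-05) and 4.91 (SE 0.48, adjusted p = 4.88e-05), followed by *Loxl3* at 4.12, *Plod1* at 3.95, *Plod3* at 3.85, *Loxl2* at 3.42, *Plod2* at 3.27 and *Loxl4* at 1.49. The 8 genes entered this test through the high *Acta2-tdT* group. On this scale 71.0% of the 11995 genes tested were higher in *Acta2-tdT* cells. Without the filter 19.4% of 40888 were, and 8 of 8 members were still called (limma, adjusted p = 0.000923 for *Lox* and 0.000636 for *Loxl1*). After scaling, 7 of 8 members were higher, against 17.2%, with log2 fold changes of 2.48 for *Lox*, 2.42 for *Loxl1*, 1.66 for *Loxl3*, 1.62 for *Plod1*, 1.51 for *Plod3*, 1.19 for *Loxl2* and 1.15 for *Plod2*. *Loxl4* did not pass (0.18, limma, adjusted p = 0.214). Scaled and without the filter, 5 of 8 were called against 1.45% of all genes, and *Plod1* and *Plod3* were not (limma, adjusted p = 0.0676 and 0.0771). With 1 mouse left out this count ran from 2 to 7, with 2 called without *Acta2-tdT* mouse 5, 7 or 8 or *Pdgfra-tdT* mouse 6, and 3 without *Acta2-tdT* mouse 6 or *Pdgfra-tdT* mouse 7. The ratio of scaled means was 37.0 for *Loxl1*, 22.9 for *Lox*, 11.0 for *Loxl3* and 9.22 for *Plod2*, but 3.71 for *Plod3*, whose *Pdgfra-tdT* mice 5, 6 and 7 had 2.27, 2.32 and 1.73 scaled FPKM. Scaled values did not overlap for 7 of the 8 genes (6.28% of all genes), and as deposited for all 8 (19.9%). Marker sums differed between the lines as well. On the scaled values, fibroblast markers summed to 204 to 302 in *Acta2-tdT* and 4.34 to 53.9 in *Pdgfra-tdT* mice, smooth muscle markers to 302 to 463 and 1.44 to 8.92, and neutrophil markers to 136 to 914 and 13.0 to 51.5. Endothelial markers were lower in *Acta2-tdT* mice, at 2.77 to 4.06 against 6.69 to 309, and macrophage markers overlapped (1147 to 1542 and 738 to 2913). Their part in these differences was not tested.

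**Figure D2:**
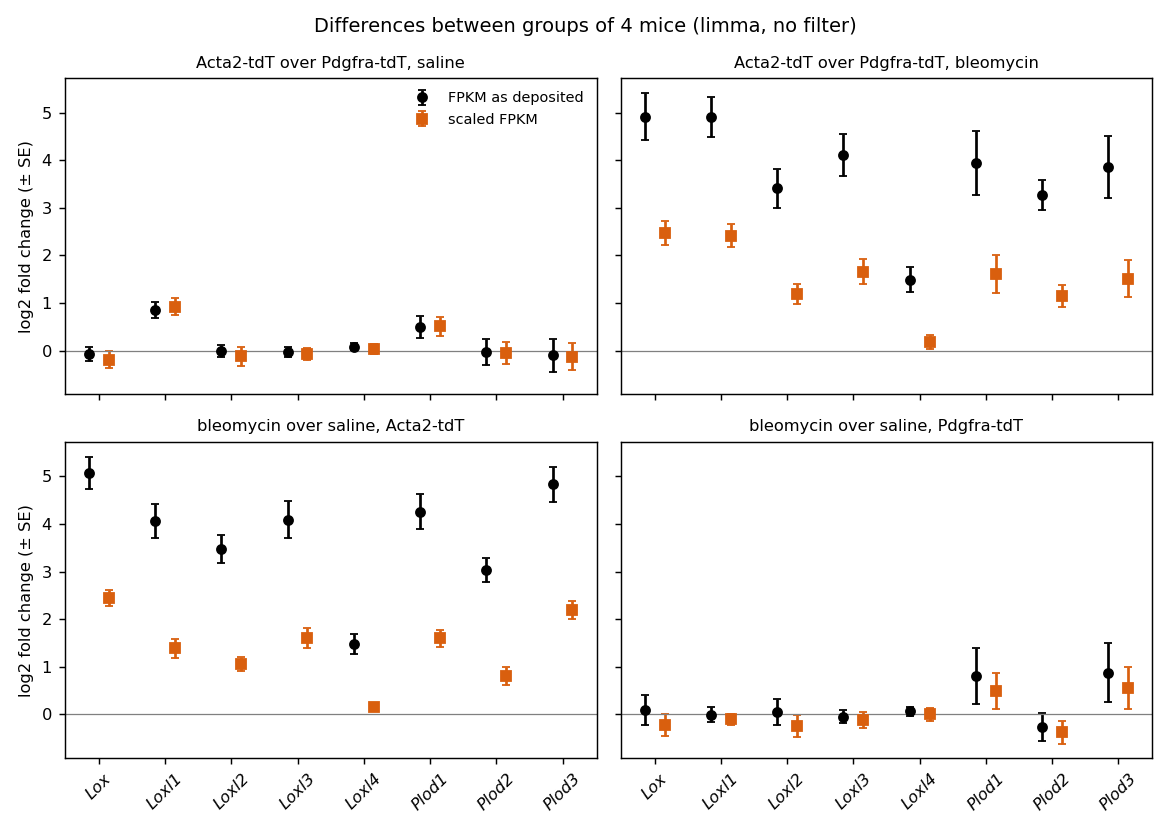
Log2 fold changes of the 8 genes in the 4 comparisons (limma on log2(FPKM + 1), no filter, bars are standard errors, 4 mice a group), from FPKM as deposited (circles) and scaled (squares). In both comparisons that hold the *Acta2-tdT* bleomycin mice all 8 genes are positive on both scales, and scaling brings *Loxl4* to 0.18 or less. In the other 2 comparisons no gene is called, with values from -0.19 to 0.93 between the saline-treated lines and from -0.38 to 0.88 with bleomycin in *Pdgfra-tdT* mice.

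In *Pdgfra-tdT* mice none of the 8 genes was called with bleomycin (limma, no filter, 0 with an unadjusted p under 0.05), where 0.00466% of 42954 genes were. With the filter only *Plod3* could be tested, against 0.124% called of 7275 genes, and its log2 fold change was 0.88 (SE 0.60, limma, adjusted p = 0.791). *Plod1* had 0.81 (SE 0.58, limma, no filter, adjusted p = 0.841), and *Plod2* had -0.26. The other 5 genes had log2 fold changes between -0.05 and 0.09. The treatment groups overlapped for every gene on both scales. *Plod3* and *Plod1* were high in *Pdgfra-tdT* mouse 5, in which macrophage markers summed to 3972 and endothelial markers to 875.5 FPKM. In mouse 8 *Plod3* and *Plod1* were at 0.0972 and 0.126 FPKM, and these sums were 422 and 3.83 FPKM. Mouse 5 also had the highest nuclear protein-coding sum of its group, and after scaling it did not stand apart, with *Plod3* at 2.27 against 2.32 in mouse 6 and *Plod1* at 2.38 against 2.04 in mouse 7. Among the saline mice, mouse 3 was high in *Plod1*, *Plod2* and *Plod3*, with endothelial markers summing to 333.5 FPKM where the other 3 had at most 9.70. The part of these cells in the *Plod* values was not tested.

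The effect of bleomycin itself differed between the lines. As deposited, the difference of the 2 log2 fold changes was positive in 8 of 8 genes (36.6% of 16605 genes tested), between 1.41 in *Loxl4* and 4.99 in *Lox*. After scaling it passed in 4 genes (1.39% of all), *Lox* at 2.67 (SE 0.31, limma, adjusted p = 0.000276), *Loxl3* at 1.72, *Loxl1* at 1.49 and *Loxl2* at 1.31 (adjusted p = 0.0202). It did not pass in *Plod3* at 1.64 (SE 0.50, limma, adjusted p = 0.102), *Plod2* at 1.19 (adjusted p = 0.0609), *Plod1* at 1.11 (adjusted p = 0.210) and *Loxl4* at 0.15. The 5 lysyl oxidases and *Plod2* passed the filter only through the bleomycin-treated *Acta2-tdT* mice, while *Plod1* and *Plod3* reached 1 FPKM in 5 and 4 of the other 12 mice. Without the filter the same 8 and 4 genes were called, against 11.4% and 0.281% of 44499 genes. The 4 genes called after scaling were lysyl oxidases, and an interaction between the families was not tested. Without *Pdgfra-tdT* mouse 5 the count was 6 and included *Plod3* at 1.78 (limma, adjusted p = 0.0373) and *Plod2* at 1.20 (adjusted p = 0.0311), and without *Acta2-tdT* mouse 3 or *Pdgfra-tdT* mouse 6 it was 3. With quantile normalization in place of scaling, *Plod1* at 1.68 (limma, adjusted p = 0.118) and *Plod3* at 2.32 (adjusted p = 0.0520) did not pass, and the other 6 genes did.

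In saline-treated mice, no gene was called between the lines (limma, no filter, against 0.126% of 43598 genes higher in *Acta2-tdT*), and none reached the filter of 1 FPKM in 4 of 8 mice. As deposited, *Loxl1* was the 1 member with an unadjusted p under 0.05 (limma, no filter), as had 3387 of the 43598 genes. Its mean was 1.15 ± 0.135 FPKM in *Acta2-tdT* and 0.207 ± 0.216 FPKM in *Pdgfra-tdT* mice (SD, n = 4), a ratio of 5.55 and a log2 fold change of 0.85 (SE 0.17, limma, adjusted p = 0.168). The groups did not overlap (p = 0.0286 by exact two-sided permutation, which cannot go lower with 4 mice in each group), as for 4.58% of all genes in this direction. Without *Pdgfra-tdT* mouse 3, the highest of its group, *Loxl1* was called with a log2 fold change of 0.96 (limma, adjusted p = 0.0187), and with sample quality weights at 0.94 (adjusted p = 0.0116). *Plod1* had a log2 fold change of 0.49 (adjusted p = 0.688), and its groups were apart on the scaled values only (3.64% of all genes). On that scale its unadjusted p was 0.0325 (limma, no filter, adjusted p = 0.558). The other 6 genes had log2 fold changes between -0.10 and 0.08. Neutrophil markers summed to 739.5 to 1475 FPKM in *Acta2-tdT* and 20.2 to 43.8 FPKM in *Pdgfra-tdT* saline mice, and smooth muscle markers to 167 to 382 and 3.97 to 14.3 FPKM, and their part in the *Loxl1* and *Plod1* differences was not tested.

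Levels per kilobase can be ordered within a group. In *Acta2-tdT* bleomycin mice the order of mean FPKM was *Plod3* (44.5 ± 20.6), *Lox* (44.1 ± 18.0), *Plod1* (40.7 ± 19.7), *Loxl1* (37.6 ± 15.3), *Loxl3* (22.9 ± 10.9), *Loxl2* (15.9 ± 6.17), *Plod2* (11.1 ± 2.85) and *Loxl4* (2.33 ± 0.777; all SD, n = 4). Neighbours among the first 4 did not differ beyond their spread within mice, nor did *Loxl2* and *Plod2*. *Loxl1* exceeded *Loxl3* in 4 of 4 mice, by 0.76 ± 0.17 on the log2(FPKM + 0.1) scale, and *Plod2* exceeded *Loxl4* in 4 of 4 mice, by 2.21 ± 0.55. *Loxl3* exceeded *Loxl2* by 0.45 ± 0.35, in 3 of 4 mice. In *Acta2-tdT* saline mice *Loxl1* and *Plod1* led with 1.15 and 0.990 FPKM and did not differ beyond their spread, and *Plod1* exceeded the next gene, *Plod3*, in 4 of 4 mice. In *Pdgfra-tdT* saline mice no neighbours in the order differed beyond their spread, and in *Pdgfra-tdT* bleomycin mice only *Loxl2* and *Lox* did, by 0.53 ± 0.48 in 3 of 4 mice.

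The composition of each family does not depend on the scaling between mice. *Lox* made up 6.64% to 14.0% of the summed FPKM of the 5 lysyl oxidases in *Acta2-tdT* saline mice and 34.8% to 36.8% in bleomycin mice. *Loxl1* made up 47.4% to 52.6% in the former and 29.8% to 31.7% in the latter. The leading lysyl oxidase was thus *Loxl1* in each saline and *Lox* in each bleomycin mouse of this line. The saline shares rest on low values, with *Lox* at 0.153 to 0.292 FPKM, under the receptor gene medians of 0.319 to 0.328. No gene exceeded the 90th percentile of the receptor genes in these saline mice. The mean share of *Lox* was higher with bleomycin by 25.4 percentage points and that of *Loxl1* lower (-19.6), each without overlap (p = 0.0286 by exact two-sided permutation, again the lowest possible, and 0.102 adjusted over the 32 share tests). *Loxl2* went from 19.6% ± 3.29 to 13.3% ± 1.72 (same exact p), *Loxl3* from 11.7% ± 3.76 to 18.1% ± 2.27 (exact p = 0.0571) and *Loxl4* from 7.85% ± 4.33 to 2.02% ± 0.473 (SD, n = 4, exact p = 0.0571).

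Among the lysyl hydroxylases of *Acta2-tdT* mice, *Plod3* made up 15.04% to 31.2% with saline and 39.6% to 49.1% with bleomycin. *Plod1* made up 46.6% to 63.9% and 37.3% to 45.6%. Both moved without overlap, *Plod3* by 21.4 and *Plod1* by -11.5 percentage points (exact two-sided permutation test, p = 0.0286, adjusted 0.102). From FPKM + 0.1 the change of *Plod1* was -8.57 percentage points (exact permutation, p = 0.0857), while that of *Loxl4* was -7.92 (exact p = 0.0286). *Plod2* went from 23.0% ± 6.62 to 13.1% ± 6.75 (SD, n = 4, exact p = 0.0857). Between the saline-treated lines, *Loxl1* and *Plod1* took larger shares in *Acta2-tdT* mice, by 36.1 and 21.8 percentage points, and *Loxl3* a smaller one (-8.87), each with p = 0.0286 in the exact two-sided permutation test and 0.102 adjusted. Between the bleomycin-treated lines *Loxl2* took a smaller share in *Acta2-tdT* mice (-17.3 percentage points, same exact p), and in *Pdgfra-tdT* mice the lowest p for a share with bleomycin was 0.114 (exact two-sided permutation test). From FPKM + 0.1, p was also 0.0286 (exact permutation) for *Loxl1* (15.5) and *Loxl4* (-12.6) between the bleomycin-treated lines and for *Plod3* (-11.5) between the saline-treated lines. No share passed after adjustment, from FPKM or from FPKM + 0.1, the smallest adjusted p from FPKM being 0.102. In *Pdgfra-tdT* mice shares were taken of family sums of 0.807 to 3.94 FPKM for the lysyl oxidases and 0.368 to 13.8 FPKM for the lysyl hydroxylases. In *Acta2-tdT* saline mice these sums were 2.09 to 2.49 and 1.38 to 2.79 FPKM.

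**Figure D3:**
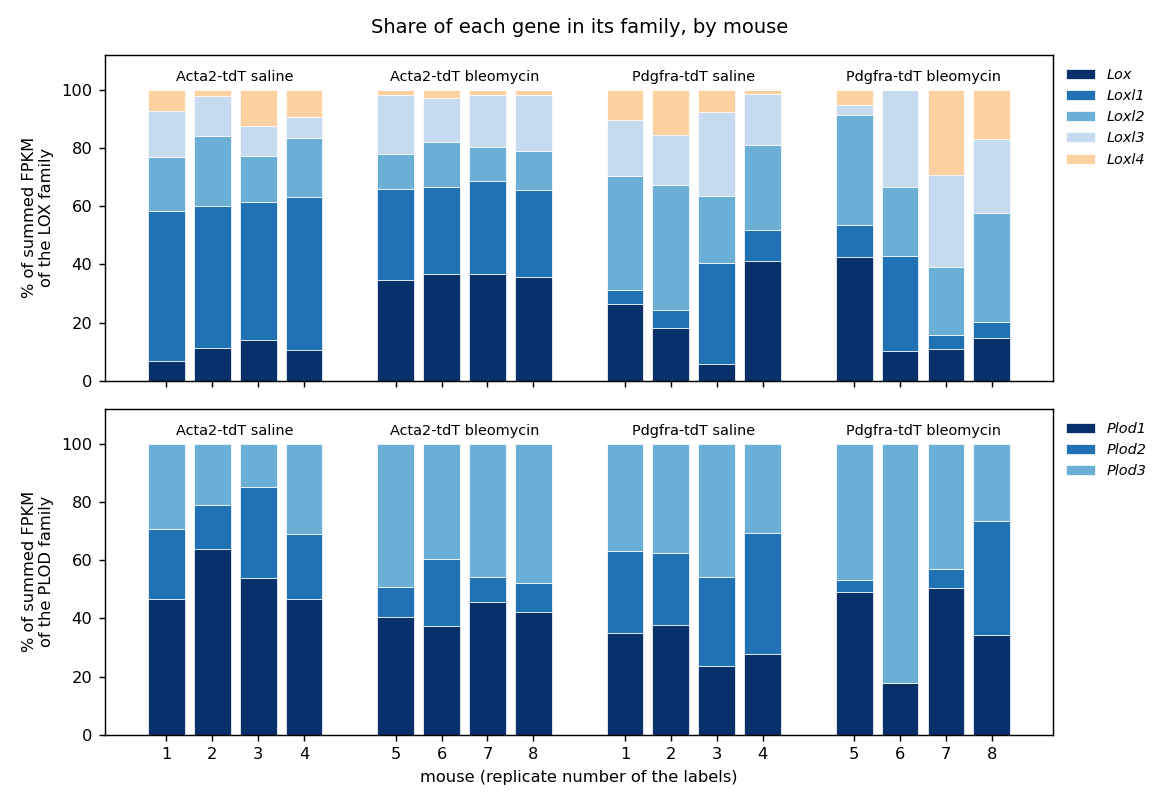
Share of each gene in the summed FPKM of its family (percent, 0 to 100) in each of the 16 mice, for the lysyl oxidases (top) and the lysyl hydroxylases (bottom). In *Acta2-tdT* mice *Lox* takes 6.64% to 14.0% with saline and 34.8% to 36.8% with bleomycin, and *Pdgfra-tdT* mice vary more from mouse to mouse than *Acta2-tdT* bleomycin mice do.

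Relative to collagen, their substrate, the cross-linking enzymes were lower in each bleomycin than in each saline mouse of the *Acta2-tdT* line, without passing adjustment. The summed FPKM of the collagen genes *Col1a1*, *Col1a2* and *Col3a1* was 7.28, 6.31, 6.67 and 8.86 with saline and 1245, 692, 1865 and 2339 with bleomycin, while the lysyl oxidases summed to 2.29 ± 0.165 and 123 ± 50.8 FPKM and the lysyl hydroxylases to 1.92 ± 0.616 and 96.3 ± 41.4 FPKM (SD, n = 4). As log2 ratios with 1 FPKM added to both sums, the lysyl oxidases went from between -1.50 and -1.17 with saline to between -3.84 and -3.30 with bleomycin. The lysyl hydroxylases went from between -1.67 and -1.38 to between -4.17 and -3.65. The groups did not overlap, with differences of -2.28 and -2.43 (exact two-sided permutation test, p = 0.0286, the lowest possible). Neither passed after adjustment over 8 tests (exact permutation, adjusted p = 0.0571). In *Pdgfra-tdT* mice collagen summed to 0.723 to 7.74 FPKM with saline and 0.668 to 47.4 with bleomycin, and the ratios overlapped (differences of 0.12 for lysyl oxidases and 1.01 for lysyl hydroxylases, exact two-sided permutation test, p = 0.914 and 0.2). *Pdgfra-tdT* mouse 5, which had the 47.4 FPKM of collagen, had a lysyl oxidase ratio of -3.29, like the *Acta2-tdT* bleomycin mice, where mice 6, 7 and 8 had -0.88, 0.13 and 0.26. Between the bleomycin-treated lines the differences were -2.66 and -3.82, lower in *Acta2-tdT* mice (same exact p). With sums near or under 1 FPKM, as in most *Pdgfra-tdT* mice, the added 1 pulls the ratio towards 0. To a lesser degree this holds for *Acta2-tdT* saline mice, with family sums of 2.09 to 2.49 and 1.38 to 2.79 FPKM. The added 1 thereby enlarges the differences of -2.28 and -2.43.

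**Figure D4:**
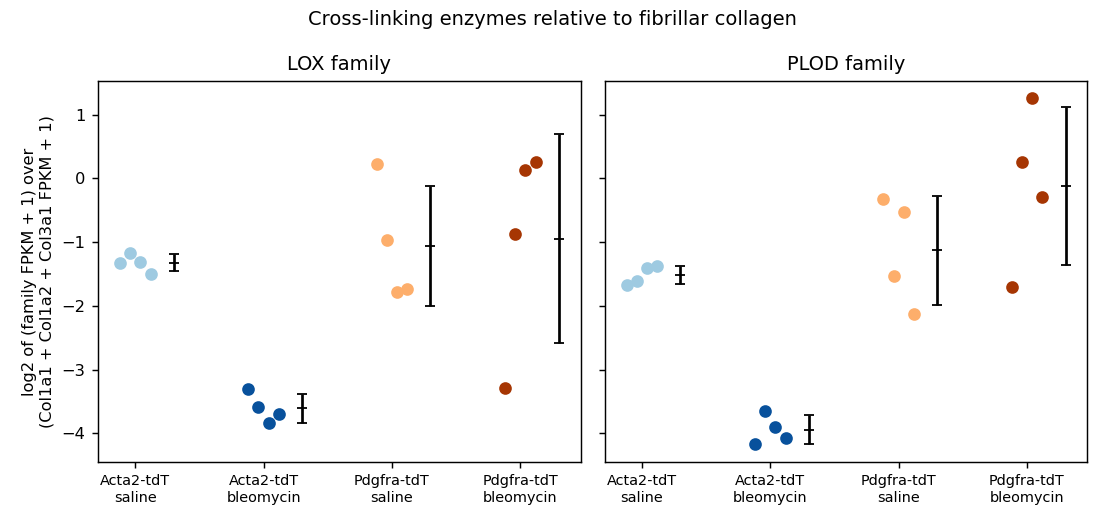
Log2 of the summed FPKM of lysyl oxidases (left) or lysyl hydroxylases (right), plus 1, over that of *Col1a1*, *Col1a2* and *Col3a1*, plus 1, in each mouse. Points are mice and bars are the mean ± SD of 4 mice. *Acta2-tdT* bleomycin mice lie between -3.84 and -3.30 for lysyl oxidases, and 1 *Pdgfra-tdT* bleomycin mouse (mouse 5, -3.29) lies beside them.

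Genes that work with these enzymes moved in the same direction in *Acta2-tdT* mice with bleomycin. Of 5 fibrillar collagen genes 5 of 5 tested rose, led by *Col1a1* with a log2 fold change of 7.62 (4.72 scaled), *Col1a2* with 7.06 (4.14), *Col3a1* with 6.29 (3.41) and *Col5a2* with 5.76 (3.0). Of 5 genes of elastic fibres 5 of 5 tested rose as deposited and 3 after scaling, *Eln* (elastin) by 5.13 (2.28 scaled), *Fbn1* (fibrillin) by 4.95 (2.21) and *Efemp2* (fibulin-4, which brings *Lox* to elastin) by 4.58 (1.78). *Ltbp4* had 3.13 and, scaled, 0.38, and *Fbln5*, the fibulin that binds *Loxl1*, had 1.28 and, scaled, -0.02, and neither passed after scaling. Of 8 genes for activation and docking of lysyl oxidases 7 of 7 tested rose on both scales. Among them were *Bmp1*, the protease that frees active *Lox* from its precursor (4.06, scaled 1.38), *Fn1* (fibronectin, 6.83, scaled 4.03), *Thbs1* (thrombospondin, 5.91, scaled 3.02), *Pcolce* (an enhancer of *Bmp1*, 5.77, scaled 2.87) and *Postn* (periostin, 5.74, scaled 2.81). *Bmp1* and *Fbln5* are named for their roles, after their values had been seen.

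Of 14 genes for procollagen hydroxylation and folding, 12 of 12 tested rose in *Acta2-tdT* mice as deposited and 11 after scaling. *Fkbp10*, a chaperone that acts with *Plod2*, rose by 5.81 (3.01 scaled), *P4hb*, a subunit of prolyl hydroxylase, by 5.68 (2.75), *P4ha2*, a catalytic subunit of that enzyme, by 4.47 (1.83) and the prolyl hydroxylase *P3h1* by 4.47 (1.92). The 1 gene lost by scaling was *P3h3*, at 2.08 and 0.04, named for that after its values had been seen. The transglutaminase *Tgm2*, which cross-links matrix proteins by another chemistry, rose by 3.06 as deposited and did not pass after scaling (0.35, limma, adjusted p = 0.327). These genes, too, entered the test through the high bleomycin group. Without the filter, 12 of 14 genes for hydroxylation and folding rose as deposited and 11 after scaling, and *Colgalt2* fell on both scales (-0.22, scaled -0.28, limma, adjusted p = 0.0175 and 0.0122). Of the 8 genes for activation and docking 7 rose on both scales without the filter, and *Tll1*, a protease related to *Bmp1*, fell after scaling only (-0.56, limma, adjusted p = 0.00264). Both are named after their values had been seen. Of all genes tested, 70.4% rose as deposited and 24.5% after scaling, or 23.8% and 6.45% without the filter. The median log2 fold changes of the lists were 6.29, 4.58, 5.74 and 3.99 as deposited and 3.41, 1.78, 2.81 and 1.39 scaled, beside 1.76 and -0.01 over all genes tested. Between the bleomycin-treated lines, the same lists were higher in *Acta2-tdT* cells in 5 of 5, 5 of 5, 7 of 7 and 12 of 12 tested genes, and in 5, 4, 7 and 9 after scaling, beside 71.0% and 17.2% of all genes. Without the filter, 5 of 5, 4 of 5, 7 of 8 and 6 of 14 were called after scaling, beside 1.45% of all genes. In *Pdgfra-tdT* mice 9 genes of these lists and *Tgm2* could be tested with bleomycin, and 0 were called (limma). Between the saline-treated lines *Eln* was called as deposited and scaled (1.28 and 1.32), and 2 genes for docking, *Postn* and *Lum*, as deposited only. *Eln*, at a mean of 2.34 FPKM in *Acta2-tdT* and 0.395 in *Pdgfra-tdT* saline mice, entered this test through the high group. None of the 3 was called without the filter (limma, adjusted p = 0.111 for *Eln*, 0.214 for *Postn* and 0.198 for *Lum*), where 0.126% of all genes were higher in *Acta2-tdT* mice.

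The genes whose pattern over all 16 mice was most like each member were sought among 10364 protein-coding genes, by the root mean square difference of standardised log2 scaled values, where 0 means an identical pattern. *Col5a2* was among the 2 nearest to *Lox* (0.207), and for *Loxl1* these were *Ltbp2* (0.172) and *Col16a1* (0.179). For *Loxl3* they were *Cxcl14* (0.183) and *Tnc* (0.206), and for *Loxl2* *Spon1* (0.310) and *Wisp1* (0.322). Apart from *Cxcl14*, a chemokine, the genes named here for these 4 lysyl oxidases encode matrix or matrix-bound proteins. How often such genes stand near other genes was not tested. For *Plod1* the nearest were *Sar1a* (0.176) and *Ubtd1* (0.216), for *Plod3* *Wdr1* (0.172) and *Arf4* (0.234), and for *Plod2* *Mak16* (0.400) and *B3galnt1* (0.422). *Sar1a* and *Arf4* are small GTPases of transport between endoplasmic reticulum and Golgi. *Loxl4* had no close match (*Plk4*, 0.607). Among the members themselves, *Lox* and *Loxl3* (0.301), *Lox* and *Loxl2* (0.314) and *Loxl2* and *Loxl3* (0.376) were nearest, *Plod1* and *Plod3* were at 0.444, and *Loxl4* was at least 0.936 from each of the others.

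In GRCm38, *Loxl1* lies on chromosome 9 from 58287738 to 58313186, *Loxl2* on chromosome 14 from 69609068 to 69695834, *Loxl3* on chromosome 6 from 83034173 to 83052562 and *Loxl4* on chromosome 19 from 42593982 to 42612813. *Plod1* lies on chromosome 4 from 147909753 to 147936767, *Plod2* on chromosome 9 from 92542223 to 92608428 and *Plod3* on chromosome 5 from 136987019 to 136996648. Exons of *Loxl3* share 535 bases with *Htra2* and those of *Plod3* 529 bases with *Znhit1*, each on the other strand, and *Plod2* shares 346 bases with *Gm38391* and *Loxl2* 301 with *Gm27177*. SmartSeq2 libraries do not mark the strand, so reads in these bases cannot be told apart. *Znhit1* had a median of 8.99 FPKM in saline- and 108 FPKM in bleomycin-treated *Acta2-tdT* mice, and *Htra2* 0.544 and 16.3 FPKM, so both overlapping partners were also higher with bleomycin. *Gm38391* and *Gm27177* had medians of at most 0.323 FPKM in every group. In single *Pdgfra-tdT* mice *Gm27177* reached 2.60 FPKM with saline and 1.68 with bleomycin, above the highest *Loxl2* values there (0.613 and 1.49 FPKM).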

How the data were processed

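FPKM were deposited by the authors for each mouse on its own. They aligned reads with TopHat2 2.1.1 and Bowtie2 2.2.9 to GRCm38 and computed FPKM with Cufflinks 2.1.1, with no scaling between mice. Depth is unknown, and no interval that needs counts was computed. SmartSeq2 reads amplified full-length cDNA without molecular identifiers.

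The tables held 49534 rows, and rows of a gene were summed. The 15 genes not marked OK in some mouse were left out of the fits. No mice had identical values. The 8 genes and all lists were chosen with earlier results of these data known. Groups were compared with limma 3.58.1 (lmFit, eBayes with trend, R 4.3.3) on log2(FPKM + 1) across all genes with at least 1 FPKM in at least 4 of the 8 mice compared (of 16 for the interaction), adjusted by the method of Benjamini and Hochberg and called under 0.05. Members under this filter take their values from the fit with no filter on genes above 0 in 1 mouse. Scaled values were multiplied so that the 21961 nuclear protein-coding genes summed to 51978.7 in each mouse. Exact permutation tests are two-sided. Python 3.11.15, pandas 2.3.3, NumPy 2.4.6, SciPy 1.17.1 and matplotlib 3.10.9 were used, and the fits were tested on simulated data.

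Named genes are the 8 members, in each comparison up to 4 genes of each partner list with the largest change among those called with groups apart, and the 2 nearest genes of each member, of which 1 is not reported here. *Bmp1*, *Fbln5*, *P3h3*, *Colgalt2* and *Tll1* fall outside this rule. Alternatives were a pseudocount of 0.1, no filter, scaling, quantile normalization, sample quality weights, 1 fit of all mice, a replicate block, each mouse left out (on the gene set of the full comparison), shares from FPKM + 0.1 and ratios to *Col1a1* and *Col1a2* only. Combinations with no filter, and the receptor gauge, were added after seeing the data. Replicates are different mice by the labels.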

Additional observations from a re-analysis of the deposited data

Results flagged for a closer look

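Among the 4 mice of a group, 1 mouse stood far from the other 3 in 4 of 32 gene and group combinations as deposited. *Lox* at 1.68 FPKM and *Loxl2* at 1.49 FPKM stood apart in *Pdgfra-tdT* bleomycin mouse 5, and *Plod1* at 1.19 FPKM and *Plod3* at 2.31 FPKM in *Pdgfra-tdT* saline mouse 3. After scaling, *Plod3* at 1.96 scaled FPKM in the latter mouse was the 1 value left. Chance alone marks about 1 in 20 groups in this way.

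The effect of bleomycin differed between the lines in each of the 8 genes as deposited (limma, interaction of line and treatment, higher in *Acta2-tdT* cells). The difference of log2 fold changes was 4.99 for *Lox*, 4.14 for *Loxl3*, 4.06 for *Loxl1*, 3.96 for *Plod3*, 3.46 for *Plod1*, 3.42 for *Loxl2*, 3.30 for *Plod2* and 1.41 for *Loxl4*, with adjusted p from 1.69e-05 to 0.00262. The 5 lysyl oxidases and *Plod2* passed the filter of this fit only through the high *Acta2-tdT* bleomycin group. Of all genes tested, 36.6% were called in this direction, and without the filter 11.4%, when all 8 genes were called as well (adjusted p from 5.15e-05 to 0.00724). After scaling, *Loxl4* (adjusted p = 0.616), *Plod1* (0.210), *Plod2* (0.0609) and *Plod3* (0.102) were not called. With quantile normalization *Plod1* (adjusted p = 0.118) and *Plod3* (adjusted p = 0.0520) were no longer called by limma.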

How the results depend on the processing

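In *Acta2-tdT* mice the count of 8 of 8 genes higher with bleomycin was 7 or 8 under every alternative and with each mouse left out. Scaling gave 5 instead of 8 genes between the bleomycin-treated lines without the filter, and 4 instead of 8 in the interaction, with and without the filter. Scaled and unfiltered, leaving out 1 mouse gave 2 to 7 genes between the bleomycin-treated lines (5 with all mice) and 2 to 4 in the interaction (2 without *Acta2-tdT* mouse 3 or 8 or *Pdgfra-tdT* mouse 7); with the filter the latter was 3 to 6. Between the saline-treated lines sample quality weights gave 1 gene instead of 0 without the filter, and leaving out 1 mouse gave 0 to 1, or 0 to 2 after scaling, the highest without *Pdgfra-tdT* mouse 3. In the ratio to collagen, a pseudocount of 0.1 moved the lysyl oxidase difference between the bleomycin-treated lines to -2.565 (exact two-sided permutation test, p = 0.0571), and leaving out 1 mouse gave -3.444 to -2.26, with p = 0.0571 without any 1 of the *Acta2-tdT* mice and 0.0286 without any 1 of the *Pdgfra-tdT* mice (exact two-sided permutation test). Except where said, the cause of these changes was not tested.

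Directions turned only in values that passed no test. Between the saline-treated lines, *Loxl3* was 0.032, *Plod2* 0.19 and *Plod3* 0.19 with quality weights, *Loxl4* -0.003 with quantile normalization, and *Plod2* 0.187 and *Plod3* 0.027 with a pseudocount of 0.1. With bleomycin in *Pdgfra-tdT* mice, *Lox* was -0.217 and *Loxl2* -0.247 when scaled, -0.039 and -0.074 with a pseudocount of 0.1, -0.056 and -0.128 with quantile normalization and -0.204 and -0.17 with quality weights. *Loxl1* was 0.045 and *Loxl3* 0.002 with quantile normalization, and 0.034 and 0.024 with weights. With each mouse left out, log2 fold changes between the saline-treated lines ran from -0.159 to 0.045 (*Lox*), -0.042 to 0.044 (*Loxl2*), -0.059 to 0.028 (*Loxl3*), -0.157 to 0.242 (*Plod2*) and -0.257 to 0.256 (*Plod3*). Those with bleomycin in *Pdgfra-tdT* mice ran from -0.227 to 0.208 (*Lox*), -0.093 to 0.112 (*Loxl1*), -0.201 to 0.153 (*Loxl2*), -0.083 to 0.004 (*Loxl3*) and -0.394 to 0.005 (*Plod2*). Lysyl oxidase ratios to collagen ran from -0.499 to 0.173 between the saline-treated lines and from -0.28 to 0.905 with bleomycin in *Pdgfra-tdT* mice. Share differences, in percentage points, ran from -3.41 to 1.25 for *Loxl4* between the saline-treated lines. Between the bleomycin-treated lines they ran from -3.24 to 7.72 for *Plod1*, -3.62 to 9.5 for *Plod2* (-0.17 from FPKM + 0.1) and -11.76 to 6.86 for *Plod3*. With bleomycin in *Pdgfra-tdT* mice they ran from -10.94 to 2.77 for *Lox*, -6.89 to 6.35 for *Loxl1*, -0.35 to 9.64 for *Loxl3* and -1.42 to 8.32 for *Loxl4*.

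Mice of both lines share replicate numbers, but same-numbered mice deviated with correlations of only -0.25 to 0.13 over 16605 genes, so the numbers do not pair them. With the replicate block 0 genes were called between the saline-treated and 8 between the bleomycin-treated lines, as without the block.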
